A study of Schizosaccharomyces pombe with 7 samples.

Results

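New histone H3 was measured over 3 genes of fission yeast sugar metabolism: eno101 and tdh1, which encode enzymes of glycolysis, and scr1, which encodes a repressor of genes that glucose keeps off. Their probes were those whose midpoint lies in the gene or within 1 kb of it on chromosome II of the reference ASM294v3, which gave 69 probes for eno101, 69 for tdh1 and 110 for scr1, in all 248 of the 43993 probes on the array. The arrays measured 2219 genes, of which 894 code for protein. Of the 42972 placed probes, 41974 lie on chromosome II and the rest near an end of chromosome III. Ranks, percentiles and shares over the 2219 genes are therefore not genome-wide. Schizosaccharomyces pombe cultures were stalled in S phase for 4 h by 15 mM hydroxyurea (HU) in minimal medium with 8% glucose, then moved to 4% sucrose for 2 h with HU still present, so that a FLAG-tagged H3 was made only in that interval. All genotypes received the same HU and medium change and carried the tagged H3, driven by a promoter that the labels leave unnamed, and no array came from cells left in glucose. The groups were wild type (3 arrays), fft3Δ, which lacks a Snf2-family chromatin remodeller (2 arrays), clr3Δ, which lacks a histone deacetylase (1 array), and fft3Δ clr3Δ, which lacks both (1 array, called the double mutant). The series is titled for the suppression of nucleosome turnover by Fft3, and the arrays ask where loss of Fft3, Clr3 or both alters incorporation of new H3.

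In glycolysis, glyceraldehyde-3-phosphate dehydrogenase (the product of tdh1) makes the first high-energy phosphate compound of the payoff phase, and enolase (the product of eno101) makes phosphoenolpyruvate near its end. Genes of this pathway are among the most strongly transcribed in yeasts, and transcription is known to evict and replace nucleosomes, so that histones can turn over at such genes without replication. Scr1 is a zinc-finger protein related to budding yeast Mig1 that represses genes for other carbon sources while glucose is present, among them the invertase gene inv1, and it leaves the nucleus when glucose runs out.

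All 3 genes lie on the forward strand. eno101 (SPBC1815.01) spans chrII:2201196-2202652, tdh1 (SPBC32F12.11) spans chrII:2807595-2809051, and scr1 (SPBC1D7.02C) spans chrII:1752093-1755619 with an annotated coding part that begins only at base 1753589, behind a long leader. The 250 bases before each annotated start are printed from the RefSeq copy of ASM294v3, because the upstream side is where the double mutant differed most at tdh1 and because they hold the sequence motifs described next. They occupy chrII:2200946-2201195, chrII:2807345-2807594 and chrII:1751843-1752092. Capitals mark TATAAA (the TATA box) in tdh1 and CCCCTC in scr1, the stress-starvation element to which the activator Rst2 binds at some glucose-repressed genes of fission yeast. Binding of Rst2 to scr1 was not measured here.
eno101: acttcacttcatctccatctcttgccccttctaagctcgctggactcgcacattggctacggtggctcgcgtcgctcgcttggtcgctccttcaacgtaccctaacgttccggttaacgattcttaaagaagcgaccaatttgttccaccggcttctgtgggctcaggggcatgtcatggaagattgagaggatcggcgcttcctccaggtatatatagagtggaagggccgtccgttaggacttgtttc
tdh1: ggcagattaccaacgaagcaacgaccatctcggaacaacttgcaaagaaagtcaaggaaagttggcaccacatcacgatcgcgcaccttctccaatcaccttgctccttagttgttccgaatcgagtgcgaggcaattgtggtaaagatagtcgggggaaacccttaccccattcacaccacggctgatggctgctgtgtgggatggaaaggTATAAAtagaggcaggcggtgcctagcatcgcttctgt
scr1: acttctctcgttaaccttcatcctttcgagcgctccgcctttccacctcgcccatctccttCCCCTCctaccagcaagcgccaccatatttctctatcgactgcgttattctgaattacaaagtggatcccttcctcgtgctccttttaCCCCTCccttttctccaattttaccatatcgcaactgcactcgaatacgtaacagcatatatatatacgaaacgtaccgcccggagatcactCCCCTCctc
Both strands were searched for CCCCTC and for the TATA box letters TATAAA, as well as for a Mig1-type box spelled GTGGGG or, in its other form, GCGGGG; no 2 of these matched overlapping bases in the printed windows. The scr1 window held CCCCTC 3 times, all on the forward strand, beginning 189, 101 and 9 bases before the annotated start, whereas 87 of the 5112 protein-coding promoters of this length (1.70%) held it at all and scr1 was the 1 promoter with at least 3 copies. That last count was made after the matches in scr1 had been seen. TATAAA began 38 bases before the tdh1 start and occurs in 44.4% of promoters. The eno101 window held neither TATAAA nor CCCCTC, and the Mig1-type boxes, present in 2.72% (GTGGGG) and 0.998% (GCGGGG) of promoters, were in none of the 3 windows. Other TATA box spellings were not searched, and the letters tatatata can be read in the eno101 and scr1 windows. The GC content of the windows was 53.2% (eno101), 51.2% (tdh1) and 49.2% (scr1), against a median of 32% over all promoters.

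The values are log2 ratios of ChIP to input DNA, centred so that the median probe of each array is 0 and averaged over the probes of a gene. They rank loci within a culture and do not measure the total amount of new H3, and a bulk culture cannot tell fewer cells with new H3 at a gene from less of it per cell. Every probe of the 3 genes and flanks was well above background in both channels on all 7 arrays, none was saturated, and 0 to 2 spots per gene and array were left out as nonuniform or outlying. Wild type 1 and fft3Δ 1 shared slide 1, wild type 2 and fft3Δ 2 shared slide 2, and wild type 3, clr3Δ and the double mutant shared slide 3. The double mutant array stood apart: its gene values correlated with those of wild type 3 at 0.494, against 0.809 for clr3Δ and 0.837 to 0.937 among wild-type arrays, and 929 of its spots were left out against as few as 4 on another array. No second array of clr3Δ or of the double mutant was used, so their tests borrow the spread of wild type and fft3Δ. Because nothing in the labels says that arrays of 1 genotype came from separate cultures, p-values measure the spread between these samples, which may be technical. The deleted genes fft3 and clr3 were not analysed here, so the genotypes were not checked against them.

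New H3 was high over the enolase gene eno101 in wild type, where it measured 0.78, 1.26 and 0.46 on the 3 arrays, or 0.83 ± 0.40 (SD, n = 3). These values placed it above 96.0%, 99.1% and 86.9% of the 2219 genes. It was 0.66 and 0.46 in fft3Δ, 0.38 in clr3Δ and −0.34 in the double mutant. The double mutant was below every other array and was the 1 array on which eno101 lay below the array median, above only 8.52% of genes, while fft3Δ overlapped the wild-type range and clr3Δ lay just under it. Against wild type the double mutant showed a log2 difference of −1.17 ± 0.27 (SE), a 2.25-fold lower ratio, which missed the threshold of 0.05 (limma, Benjamini-Hochberg adjusted p = 0.0543). The threshold was passed when any 1 wild-type array was left out, with differences of −1.36 to −0.96, and missed when either fft3Δ array was (adjusted p = 0.0896 each). The adjusted p was 0.178 with slide as a replicate block, and that difference was −0.79, the same as within slide 3.

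Over all arrays the differences of eno101 in the single mutants were nearer 0 than that of the double mutant, but fft3Δ on slide 2 (−0.80) was as far below its wild-type array as the double mutant was on slide 3 (−0.79). The difference from wild type was −0.27 ± 0.21 (SE) in fft3Δ (limma, adjusted p = 0.999), made up of −0.12 on slide 1 and −0.80 on slide 2. In clr3Δ it was −0.45 ± 0.27 over all wild-type arrays (adjusted p = 0.992) and −0.078 against the wild-type array of the same slide. Ranked among the 894 protein-coding genes, eno101 had the lowest difference in fft3Δ, in clr3Δ and in the double mutant; these 3 comparisons share the wild-type arrays, and eno101 was unusually high on wild type 2. Between the double mutant and clr3Δ, arrays of 1 slide, the difference was −0.72 ± 0.33 (adjusted p = 0.654). The interaction, which is the effect of losing Fft3 in clr3Δ cells minus its effect in wild type, was −0.44 ± 0.39 (adjusted p = 0.799).

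**Figure D1:**
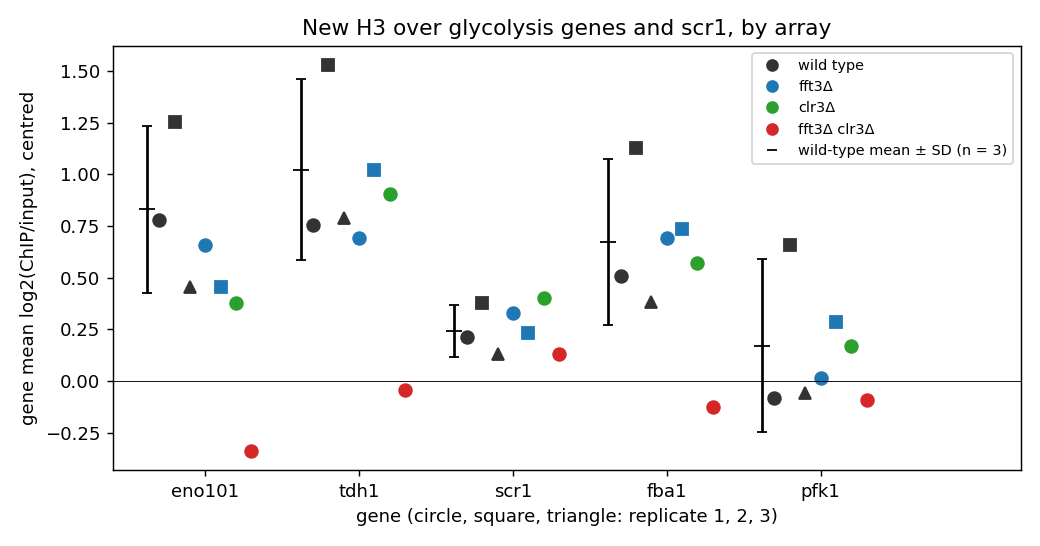
Mean log2(ChIP/input) over each gene (vertical axis, centred on the array median) for the 3 genes and the other measured glycolysis genes fba1 and pfk1 (horizontal axis), 1 point per array, with bars for the wild-type mean ± SD (n = 3). The double mutant is the lowest point at eno101 (−0.34), tdh1 (−0.041) and fba1 (−0.12). At pfk1 (−0.091) and scr1 (0.13) it is also the lowest, but lies beside wild-type points.

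The glyceraldehyde-3-phosphate dehydrogenase gene tdh1 had the highest wild-type mean of the 3, although eno101 was above it on wild type 1. It measured 0.75, 1.53 and 0.79 in wild type, or 1.02 ± 0.44 (SD, n = 3), and 0.69 and 1.02 in fft3Δ. It was 0.91 in clr3Δ and −0.041 in the double mutant. Every array except the double mutant placed tdh1 above more than 90% of genes (91.6% to 99.8%), and the double mutant placed it above 41.7%. The double mutant differed from wild type by −1.06 ± 0.29 (SE), a 2.09-fold lower ratio and the second lowest difference among the 894 protein-coding genes, which did not pass the test (limma, adjusted p = 0.116). It passed without wild type 1 (−1.20) or without wild type 2 (−0.81) but not without wild type 3 or either fft3Δ array, and was −0.83 within slide 3. The double mutant differed from clr3Δ by −0.95 ± 0.36 (adjusted p = 0.532).

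Neither single mutant separated from wild type at tdh1. The fft3Δ difference was −0.17 ± 0.23 (SE; limma, adjusted p = 0.999), and it was −0.063 within slide 1, −0.51 within slide 2 and 0.085 when wild type 2 was left out. The clr3Δ difference was −0.12 ± 0.29 (adjusted p = 0.992), but 0.12 when wild type 3 alone was the reference and 0.13 without wild type 2. The interaction was −0.78 ± 0.43 (adjusted p = 0.728). Of the 29 probes inside tdh1, 7 also match gpd3, a second gene for this enzyme, so their signal cannot be assigned to 1 of the genes; with probes found once in the genome the double mutant difference was −1.14.

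At scr1, the repressor gene, new H3 was nearer the array median and differed little between genotypes. It measured 0.22, 0.38 and 0.13 in wild type, or 0.24 ± 0.13 (SD, n = 3), 0.33 and 0.24 in fft3Δ, 0.40 in clr3Δ and 0.13 in the double mutant. The 7 arrays spanned 0.27 in all, fft3Δ lay inside the wild-type range, clr3Δ just above it, and the double mutant (0.131) just below wild type 3 (0.133). The differences from wild type were 0.039 ± 0.11 in fft3Δ, 0.16 ± 0.14 in clr3Δ and −0.11 ± 0.14 in the double mutant (SE; limma, adjusted p = 0.999, 0.992 and 0.829). Set against the wild-type array hybridised beside it, fft3Δ 1 differed by 0.11, fft3Δ 2 by −0.14, clr3Δ by 0.27 and the double mutant by −0.0019. The double mutant differed from clr3Δ by −0.27 ± 0.18 (adjusted p = 0.797), and the interaction was −0.31 ± 0.21 (adjusted p = 0.750).

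None of the 3 genes passed the test in any of the 5 comparisons. The shares of all 2219 genes that passed were 0% for fft3Δ against wild type, where 71 genes (3.20%) had an unadjusted p under 0.05 in limma, 1.40% for clr3Δ (31 genes, all higher), and 4.19% for the double mutant (93 genes, 69 or 3.11% higher and 24 or 1.08% lower). They were 0.0901% for the double mutant against clr3Δ (2 genes, both lower) and 0% for the interaction, where 139 genes (6.26%) had an unadjusted p under 0.05. The double mutant array was below the other 6 arrays at all 3 genes, as it was at 649 genes (29.2%). All 3 were above the array median on every wild-type array, as were 874 genes (39.4%). The calls over all genes depended on the processing, as given in the closing section.

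**Figure D2:**
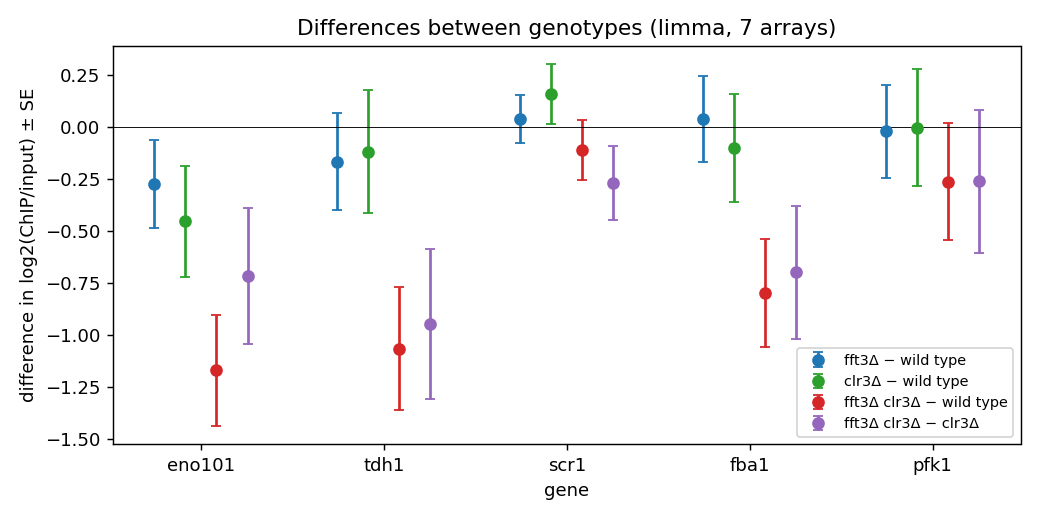
Difference in mean log2(ChIP/input) with its standard error (vertical axis) for each gene (horizontal axis) in 4 comparisons from 1 limma fit over 7 arrays. In the double mutant against wild type, eno101 (−1.17) and tdh1 (−1.06) lie furthest from 0, followed by fba1 (−0.80), and the scr1 intervals of fft3Δ and the double mutant span 0.

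Among protein-coding genes, the double mutant differences of eno101 and tdh1 from the mean of the 3 wild-type arrays were at the extreme low end. Those arrays lie on 3 slides, while the double mutant was on slide 3 alone. Against wild type 3 the differences were −0.79 (eno101), −0.83 (tdh1), −0.51 (fba1), −0.033 (pfk1) and −0.0019 (scr1), and these were not ranked. The median difference of the double mutant from the wild-type mean over all 2219 genes was −0.041. The aldolase gene fba1 held the fifth lowest place among the 894 protein-coding genes (−0.80), pfk1 ranked 121 from the lowest and scr1 359, within the bulk of the distribution.

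**Figure D3:**
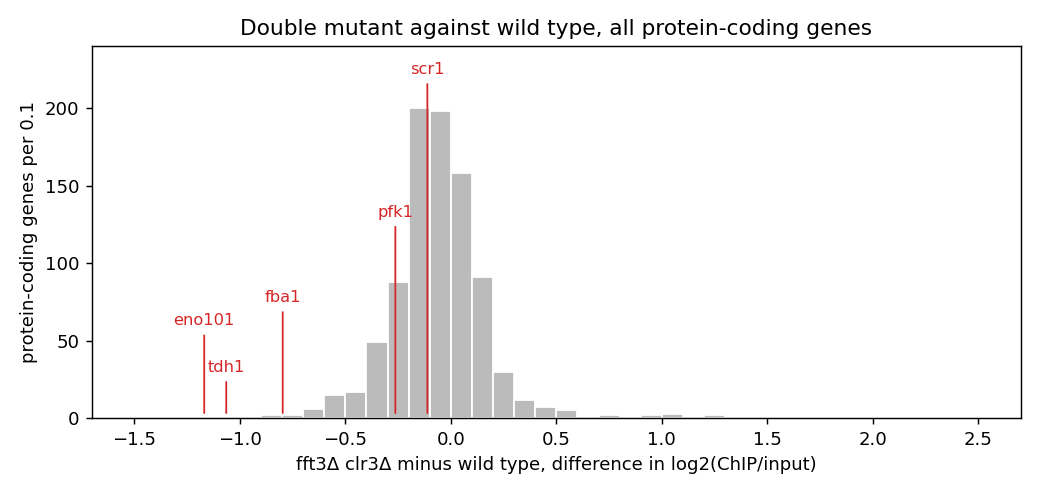
Number of protein-coding genes (vertical axis) by their double mutant minus wild type difference in log2(ChIP/input) (horizontal axis, bins of 0.1), with 5 genes marked. eno101 (−1.17) and tdh1 (−1.06) lie at the low edge of the 894 genes, and scr1 (−0.11) lies at the centre. Differences are from the mean of wild-type arrays on 3 slides. Within slide 3, eno101 differed by −0.79 and tdh1 by −0.83.

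Along eno101, signal was higher inside the gene than upstream on each wild-type array. The wild-type mean was 0.38 ± 0.45 over the upstream kilobase, 0.67 ± 0.46, 0.93 ± 0.47 and 0.88 ± 0.32 over the first, middle and last part of the gene when cut into 3 equal lengths, and 0.71 ± 0.18 over the downstream kilobase (SD, n = 3). The double mutant measured −0.64, −0.65, −0.32, −0.072 and 0.21 over the same segments, so the gap to wild type was widest in the first part of the gene (−1.32) and narrowest downstream (−0.50). It was below all other arrays at 63 of the 68 probes with a value in and around eno101, against 23.7% of all placed probes. In running means of 5 probes the gap was deepest (−1.35) at 344 bp past the gene start.

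Along tdh1 the wild-type mean was highest over the last part of the gene, although on wild type 2 the first part was as high. The wild-type mean was 1.06 ± 0.38 (SD, n = 3) over the upstream kilobase, 0.88 ± 0.62 and 0.73 ± 0.65 over the first and middle part, and 1.45 ± 0.075 over the last part. The 3 wild-type arrays were 0.42, 1.59 and 0.62 over the first part but 1.45, 1.53 and 1.38 over the last, so they disagreed at the 5′ side and lay close together at the 3′ end. Over the last part fft3Δ measured 1.31 and 1.37, clr3Δ 1.42 and the double mutant 0.43. Here the double mutant differed from the wild-type mean by −1.02, while fft3Δ and clr3Δ lay within 0.15 of that mean. Over the first and middle part, where wild type varied more, the double mutant differed by −1.20 and −0.89. These segments were not tested.

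Upstream of tdh1 the double mutant differed more than over the gene. The 250 bases printed above measured 0.52, 1.37 and 0.64 in wild type, 0.30 and 0.75 in fft3Δ, 0.58 in clr3Δ and −0.75 in the double mutant. The double mutant difference in that window was −1.59 from the wild-type mean and −1.38 within slide 3, against −1.19 and −0.88 in the eno101 window and −0.27 from both in the scr1 window. The running mean of 5 probes put the widest gap (−1.60) at position −204 bp from the tdh1 start. At 66 of 67 probes in and around tdh1 the double mutant was the lowest array. Sheared fragments of 500 to 1000 bp spread the signal of any site over several probes, so these positions are approximate.

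**Figure D4:**
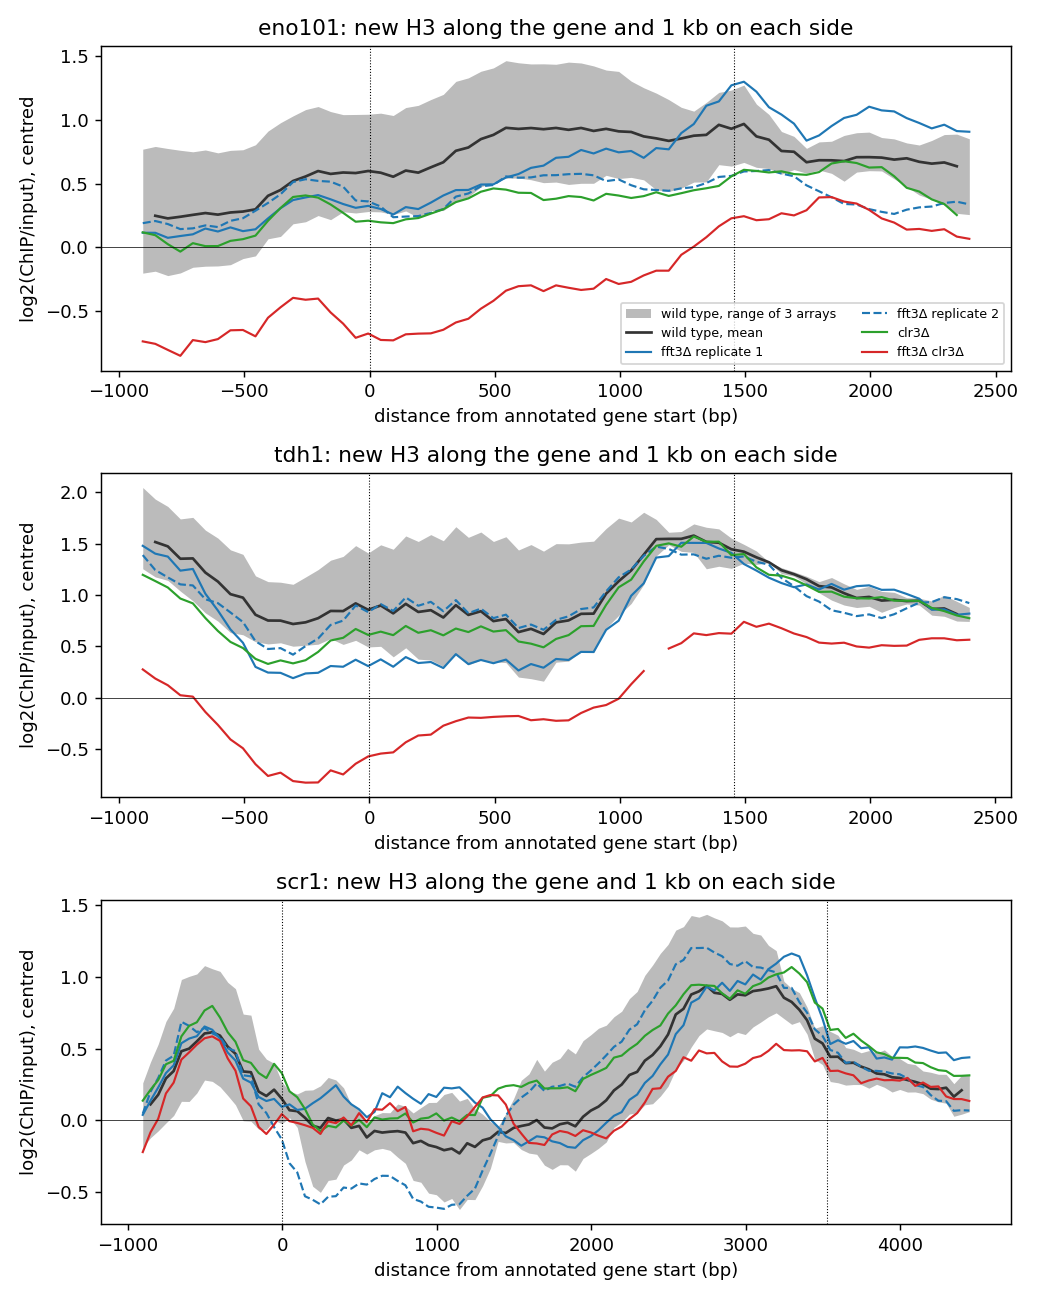
Running mean over 5 probes of log2(ChIP/input) (vertical axis, centred) against distance from the annotated gene start in bp (horizontal axis); dotted lines mark gene start and end, grey the range and black the mean of the 3 wild-type arrays. The double mutant runs below the wild-type range along eno101 and tdh1, with the gap widest at the 5′ side, and near or inside it over most of scr1.

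scr1 was low over its leader and first part and high at its 3′ end. The wild-type mean was −0.075 ± 0.25 (SD, n = 3) over the first part, 0.033 ± 0.26 over the middle and 0.78 ± 0.32 over the last, after 0.33 ± 0.34 over the upstream kilobase. Over the first part 5 arrays lay between −0.016 and 0.16. The arrays of slide 2, wild type 2 and fft3Δ 2, stood apart there at −0.34 and −0.50. Over the last part those 2 arrays were the highest (1.15 and 1.01), clr3Δ measured 0.90 and the double mutant the lowest value, 0.42. The double mutant was below all other arrays at 26 of 108 probes in and around scr1, near the 23.7% of all probes. Its largest gap in running means (−0.50) lay 2947 bp past the start, inside the coding part, and over the annotated trailer it measured 0.46 against 0.74 ± 0.048 in wild type.

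The noncoding gene that ends just before tdh1 showed a called difference. SPNCRNA.1550 measured 1.26, 1.72 and 1.08 in wild type, 1.18 and 1.13 in fft3Δ, 1.04 in clr3Δ and 0.065 in the double mutant. The double mutant lay far below the other arrays, and the difference from wild type of −1.29 ± 0.23 (SE) passed the test (limma, adjusted p = 0.0132). On the downstream side SPNCRNA.5825, an antisense noncoding gene measured by 4 probes, differed by −0.58 ± 0.12 (adjusted p = 0.0390), with wild type at 1.24 ± 0.024 (SD, n = 3) and the double mutant at 0.66. SPNCRNA.1551, which overlaps it, differed by −0.52 ± 0.13 and did not pass (adjusted p = 0.0749), nor did the TFIIH subunit gene tfb5 (−0.30 ± 0.21). Within slide 3 the differences were −1.01 for SPNCRNA.1550 and −0.55 for SPNCRNA.5825. Both calls rest on 1 double mutant array, and alternative processing is not given for them. The share of all genes called lower is given above. The called genes share probes with the 1 kb flanks of tdh1, so they are not independent of its values.

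Beside eno101 and scr1 no neighbour passed. The securin gene cut2 and the noncoding gene SPNCRNA.5536, which overlap each other downstream of eno101, both differed by −0.45 in the double mutant (adjusted p = 0.527 and 0.488). Antisense to scr1, SPNCRNA.5341 covers the coding part and differed by −0.27 ± 0.27, and SPNCRNA.5340 in the leader by 0.11 ± 0.22. DNA ratios carry no strand, so the values of scr1 and its antisense genes come from the same chromatin. The prefoldin subunit gene pfd1, downstream of scr1, differed by 0.079 ± 0.17.

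The ratio joins a ChIP and an input signal, and in the double mutant both differed from wild type. Over eno101 the centred log2 input was −0.53, −0.74 and −0.88 in wild type, −0.49 and −0.27 in fft3Δ, −0.72 in clr3Δ and −0.22 in the double mutant. The centred log2 ChIP signal was 0.28, 0.52 and −0.42 in wild type, 0.19 and 0.19 in fft3Δ, −0.35 in clr3Δ and −0.52 in the double mutant. Input over eno101 was thus highest, and ChIP lowest, on the double mutant array. Against wild type 3, on the same slide, the double mutant had 0.66 more input and 0.093 less ChIP signal over eno101, so that most of the within-slide difference in ratio lay in the input channel.

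tdh1 showed the same split, with 0.74 more input and 0.042 less ChIP than wild type 3. At scr1 both channels were higher in the double mutant, input by 0.94 and ChIP by 0.98, and the ratio differed by −0.0019. These input differences were above those of 96.6% (eno101), 97.3% (tdh1) and 98.3% (scr1) of genes, and the ChIP differences above those of 39.0%, 46.8% and 95.1%. Against the mean of the 3 wild-type arrays the input was higher by 0.50, 0.43 and 0.44, and ChIP differed by −0.64, −0.60 and 0.37. Higher input was not particular to the double mutant. In fft3Δ it exceeded the wild-type mean by 0.34, 0.41 and 0.51, and ChIP differed by 0.070, 0.25 and 0.55. The highest input was on fft3Δ 2 at tdh1 (0.88, against 0.62 in the double mutant) and at scr1 (1.24 against 0.90). The part of the input signal in the ratios was not tested.

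**Figure D5:**
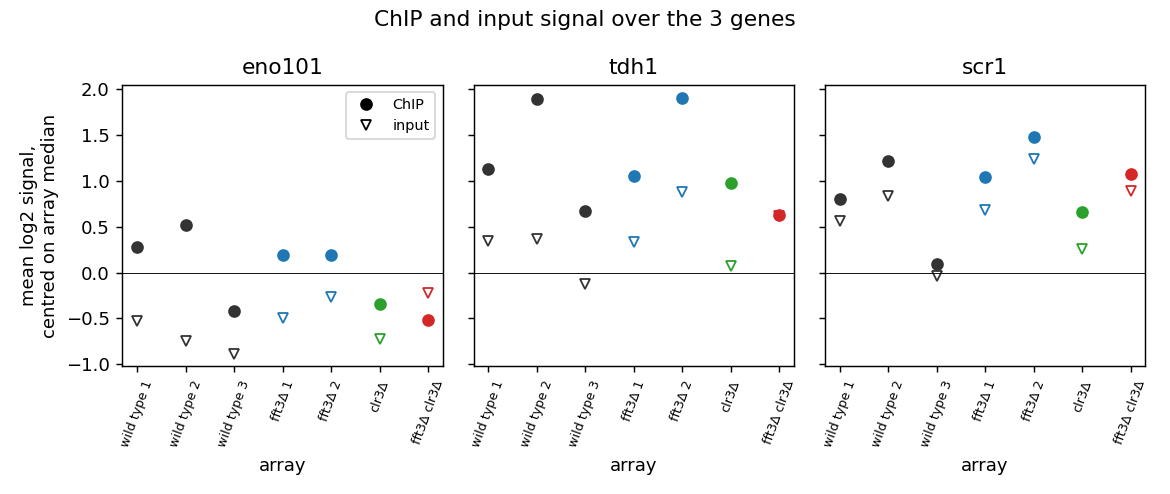
Mean log2 signal of the ChIP channel (filled circles) and the input channel (open triangles), each centred on its array median (vertical axis), by array (horizontal axis) for the 3 genes. At eno101 the double mutant has the highest input (−0.22) and the lowest ChIP signal (−0.52) of the 7 arrays, and at scr1 its input (0.90) and ChIP (1.07) are both above those of wild type 3. At tdh1 and scr1 the highest input is that of fft3Δ 2 (0.88 and 1.24).

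In level, tdh1 was above eno101 on 6 of 7 arrays and above scr1 on 6 of 7. eno101 was above scr1 on all 5 arrays of wild type and fft3Δ, and below it in clr3Δ and the double mutant. The wild-type means of tdh1 (1.02 ± 0.44) and eno101 (0.83 ± 0.40) did not differ beyond their spread, and levels of different probes also carry probe effects. In the double mutant scr1 (0.13) was the highest of the 3 and eno101 (−0.34) the lowest.

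The genes most like each member over the 7 arrays, taken among protein-coding genes with at least 5 probes and over 5 kb away, were given by Pearson correlation as a description. For tdh1 these were the ribosomal protein gene rpl1001 (0.978), the cyclophilin gene cyp7 (0.975) and prs1 (0.966), and the aldolase gene fba1 reached 0.953. For eno101 they were SPBC12C2.03C (0.948), fnx2 (0.945) and the sulfate adenylyltransferase gene sua1 (0.920), with fba1 at 0.914 and tdh1 at 0.890. For scr1 they were gsf1 (0.915) and the ribosomal protein genes rps21 (0.903) and rpl1102 (0.896), and its correlation with eno101 was 0.578. The 7 arrays share 3 slides and the double mutant array is the far point for eno101 and tdh1.

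Of 21 listed genes of glycolysis and fermentation, 4 were measured: eno101, tdh1, the aldolase gene fba1 and the phosphofructokinase gene pfk1. None of the 4 passed in any comparison. fba1 measured 0.51, 1.13 and 0.38 in wild type, 0.69 and 0.73 in fft3Δ, 0.57 in clr3Δ and −0.12 in the double mutant, which again was the lowest array, and the difference was −0.80 ± 0.26 (limma, adjusted p = 0.197). pfk1 measured −0.083, 0.66 and −0.058 in wild type, 0.017 and 0.29 in fft3Δ and 0.17 in clr3Δ. The double mutant, at −0.091, was the lowest array but beside wild type 1 and 3, and its difference from wild type was −0.26 ± 0.28. The median difference over the 4 genes was −0.93 in the double mutant, −0.094 in fft3Δ and −0.11 in clr3Δ, against −0.041, 0.0060 and −0.025 over all genes. These medians include eno101 and tdh1 and so partly restate their values, and the comparisons share the wild-type arrays.

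Of 29 listed genes of glucose sensing and repression 5 were measured, and none passed in any comparison. In the double mutant the CCAAT-binding factor gene php2 differed by −0.53 ± 0.19 (limma, adjusted p = 0.251) and the zinc-finger gene rsv1 by −0.40 ± 0.22 (adjusted p = 0.511). The adenylate cyclase gene cyr1 (−0.15), scr1 (−0.11) and the G-protein beta subunit gene git5 (0.049) were closer to 0, and the median of the 5 was −0.15. Of 24 listed genes of gluconeogenesis and alternative carbon sources 1 was measured, the galactokinase gene gal1. Against 29 probes over the 1457 bases of eno101, gal1 had only 9 over its 1974 bases, at chrII:4488298-4490271, far from the members. It measured −0.23, 0.17 and −0.0076 in wild type, 0.50 and 0.73 in fft3Δ, 0.32 in clr3Δ and 0.78 in the double mutant. There it passed narrowly (0.80 ± 0.18, limma, adjusted p = 0.0483), as the 1 called gene of these lists, and was 0.79 within slide 3. It was also higher in fft3Δ (0.63 ± 0.14, not passing), by 0.73 on slide 1 and 0.55 on slide 2. Higher was the direction of most genes called in the double mutant, as given above. Alternative processing is not given for gal1.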

How the data were processed

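H3-FLAG ChIP DNA (Cy5, red) and whole-cell extract DNA (Cy3, green) were hybridised on 7 Agilent arrays without a dye swap. The authors deposited scanner files of Agilent Feature Extraction (versions 10.7.3.1 and 12.0.3.1, per the file headers). Their processed intensity values are background-subtracted and linearly dye-normalized, per the file headers, and median spot and background intensity values were deposited uncorrected. The deposited log10 ratios equalled log10 of red over green for 99.94% of spots within 1e-6. The deposited series table holds log2 ratios equal to those computed from processed signals within 4.9e-08. Spot flags are 0 or 1, per the file headers. No source used here names the build of the probe coordinates.

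Placement on ASM294v3 subtracted 1800 bp from the file coordinate at the 3 genes. Within 50 kb of each gene, this offset gave the closest relation of input to reference GC (correlation 0.675, 0.702 and 0.678, against at most 0.335 over 100 bp away). The log2 red over green ratio was centred on each array's median, nonuniform and outlying spots were left out, and genes with at least 2 probes were averaged. limma 3.58.1 in R 4.3.3 fitted a mean per genotype to all 7 arrays (3 residual degrees of freedom), with Benjamini-Hochberg adjustment over 2219 genes at 0.05. The number of arrays limits the precision. Replicate numbers are names in accession order. The 2 slides that hold wild type and fft3Δ gave correlations of deviations of 0.564 and 0.323, and 2 pairs do not settle a pairing. Genes named are the 3 members, genes overlapping their flanks, the members of the pathway lists with the largest differences, and the 3 most alike genes of each member. The members and lists were chosen with earlier results of these data known.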

Additional observations from a re-analysis of the deposited data

How the results depend on the processing

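Alternatives were background correction, normalization, spot and probe filters, gene placement, the variance model, slide as a block, left-out replicates and, chosen after seeing the data, removal of probe GC content. For the double mutant against wild type, eno101 ranged from −1.43 to −0.79 over 20 alternatives (adjusted p 0.00641 to 0.178) and tdh1 from −1.20 to −0.81 (0.0149 to 0.219), both lower in each. eno101 passed with equal spread (−1.21), flanks included (−0.94), no centring (−1.20), GC content removed (−0.96), quantile normalization (−1.24) and slide as a random block (−0.997). tdh1 passed with equal spread (−1.06), flanks (−0.998), an intensity trend (−1.06), quantile normalization (−1.02) and the random block (−0.96). Leaving out 1 replicate gave −1.36 to −0.96 for eno101 (adjusted p 0.00734 to 0.0896) and −1.20 to −0.81 for tdh1 (0.0149 to 0.154). As a fixed replicate block, slide gave −0.79 (adjusted p = 0.178) and −0.83 (adjusted p = 0.0692), and it changed no call of the 3 genes. The cause of these changes was not tested.

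No difference of the single mutants passed. The sign turned for scr1 in fft3Δ with the replicate block (−0.016), within slide 2 (−0.14) and over left-out replicates (−0.016 to 0.11). It turned for tdh1 in clr3Δ with the replicate block and within slide 3 (0.12 each) and over left-out replicates (−0.25 to 0.13), and for tdh1 in fft3Δ over left-out replicates (−0.33 to 0.085). eno101 in fft3Δ was −0.80 within slide 2.

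Counts of called genes over the whole table moved by more than 1.5 times as follows. For fft3Δ (0) they were 3 with flanks, 5 with the trend, 3 with the random block and 0 to 6 over left-out replicates. For clr3Δ (31) they were 47 with flanks, 2 with probes found once, 51 with the random block and 32 to 55 over left-out replicates. For the double mutant (93, of which 69 higher) they were 19 with probes found once (10 higher) and 141 with the random block (89 higher). Against clr3Δ (2, both lower) they were 8 with the trend (2 higher), 4 with normexp, 36 with quantile normalization (25 higher), 29 with the random block (15 higher) and 0 to 3 over left-out replicates. For the interaction (0) they were 5 with the trend, 2 each with loess, normexp, the random block and GC content removed, 13 with quantile normalization and 0 to 2 over left-out replicates. No alternative moved the median of all genes by over 0.1 log2 units.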

Other observations

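Outside sugar metabolism, the gene lists held no called gene. Of 51 listed genes of the tricarboxylic acid cycle and respiration 10 were measured and none passed in any comparison; their differences in the double mutant ran from −0.32 to 0.11 with a median of −0.093. The 25 measured ribosomal protein genes had median values of 0.022, 0.22 and −0.064 on the 3 wild-type arrays, against 0.029, 0.039 and 0.031 over all genes. Their median difference was −0.18 in the double mutant with 22 of 25 below 0, and 0.039 in fft3Δ with 21 of 25 above 0. No ribosomal protein gene passed the test in either comparison, 1313 of all 2219 genes were below 0 in the double mutant, and 1154 were above 0 in fft3Δ. The lowest ribosomal protein difference in the double mutant, −0.40, was smaller in size than those of eno101, tdh1 and fba1.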
